A study of Mus musculus with 6 samples.

Results

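Molecular chaperones, protein folding enzymes and endoplasmic reticulum (ER) stress genes were examined in cultured thymic tuft cells with and without interleukin 13. The genes were taken by symbol from a table of 9088 listed genes. The choice covered the HSP70, HSP90, HSP110 and small heat shock proteins, the mitochondrial chaperonin, the J proteins, the protein disulfide isomerases, the cytosolic chaperonin TRiC, the lectins Calr and Canx, and 10 genes of the unfolded protein response (UPR) and ATF4 pathway. It gave 81 genes, of which 65 had enough counts to be tested. Of the 81, 2 were matched by their names and are no chaperones of the usual kind. They are Hspg2, which encodes the basement membrane proteoglycan perlecan, and Hspb11, which encodes a subunit of the intraflagellar transport machinery of cilia.

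Thymic tuft cells, a rare chemosensory epithelial type of the thymic medulla, came from wild-type male mice, whose age is not among the labels used here. They were sorted, pelleted into aggregates and kept for 12 h before a change of medium and 24 h after it. Recombinant interleukin 13 (rIL-13) at 20 ng/mL, or PBS as the vehicle, was applied only then, for 24 h. MARS-seq, a bulk method that tags the 3' end of polyadenylated RNA with unique molecular identifiers (UMIs), gave 3 libraries per group. All groups were wild type, and the labels do not say whether the libraries are separate cultures or animals, so a p-value reflects library-to-library spread alone, and that spread may be technical.

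Newly made proteins fold with the help of chaperones. In the cytosol HSP70 proteins, steered by J proteins, pass clients to HSP90 or to the ring-shaped TRiC, and heat shock factor 1 raises the inducible members under proteotoxic stress. In the ER, BiP (Hspa5), GRP94 (Hsp90b1), the calcium-binding lectins calreticulin and calnexin and the disulfide isomerases fold secreted and membrane proteins. When unfolded protein builds up there, the sensors ATF6, IRE1 and PERK raise these genes through the ER stress response element of their promoters and through the factors XBP1 and ATF4.

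The promoters were searched for the elements that these pathways are known to use, because they group the members independently of their levels in these libraries. Promoter windows came from RefSeq on GRCm38.p6 and run from 250 bases before to 50 bases after the annotated start. At least 1 window was available for 67 of the 81 members. Those without a window, among them Hspa8, Hsp90aa1, Hsp90ab1, Hspa9 and Manf, were not searched. The ER stress response element, CCAAT and CCACG with 9 bases of any kind between them, on either strand, was present in 7 of the 67 members (10.4%), against 12 of 7303 listed genes with a window (0.164%) and 39 of 32851 windows in all (0.119%). The 7 members are among those 12 genes, and for the elements below the listed genes also include the members. Because the choice by symbol took in known UPR genes, the higher share is no test of the set. These counts describe letters, and a match is not a shown binding site. The matches follow, written in the direction of the element with its fixed letters in capitals.
Hspa5: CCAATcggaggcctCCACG
Hsp90b1: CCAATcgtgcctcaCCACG
Hsp90b1: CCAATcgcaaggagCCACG
Calr: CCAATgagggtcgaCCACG
Canx: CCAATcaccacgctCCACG
Pdia6: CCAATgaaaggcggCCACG
Creld2: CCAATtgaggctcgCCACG
Dnajc3: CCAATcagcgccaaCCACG

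The Hspa5 match starts 65 bases before the annotated start of the gene, and those of Hsp90b1 lie 107 and 212 bases before the start of their gene, in opposite orientations. A shorter form, the ER stress response element II (ATTGG and CCACG with 1 base between, either strand), was in Dnajb11 and Herpud1, 2 of 67 members (2.99%) against 0.0959% of listed genes and 0.0365% of all windows. The C/EBP-ATF response element (TGATGNAA), the form read by ATF4, was in Asns, Chac1, Trib3, Herpud1 and Hspa14, 5 of 67 members (7.46%) against 2.70% of listed genes and 3.97% of all windows. The unfolded protein response element (TGACGTGG) was in Dnajc25 alone among members (1.49%), against 80 of 7303 listed genes and 0.676% of all windows. The heat shock element, searched as GAA, TTC and GAA or as TTC, GAA and TTC with 2 bases between blocks, each form the reverse complement of the other, was in Dnajb6, Hspd1, Hspe1 and Hsph1 (5.97%, against 0.616% of listed genes and 0.603% of all windows). The windows of Hspa1a, Hspa1b, Dnajb1 and Hspb1 held no match to the heat shock element in this exact form, and looser forms were not searched. Hspd1 and Hspe1, the chaperonin and its lid, are divergent neighbours whose windows overlap. The same stretch at chr1:55088059-55088076 holds the matches of both. The windows of Hspa5 at chr2:34771840-34772139 (plus strand), Herpud1 at chr8:94386179-94386478 (plus strand) and Hspe1 at chr1:55087898-55088197 (plus strand) are given whole, 5' to 3', as an ER chaperone, a UPR gene with elements of both kinds and a heat shock gene, with every element match in capitals.
Hspa5: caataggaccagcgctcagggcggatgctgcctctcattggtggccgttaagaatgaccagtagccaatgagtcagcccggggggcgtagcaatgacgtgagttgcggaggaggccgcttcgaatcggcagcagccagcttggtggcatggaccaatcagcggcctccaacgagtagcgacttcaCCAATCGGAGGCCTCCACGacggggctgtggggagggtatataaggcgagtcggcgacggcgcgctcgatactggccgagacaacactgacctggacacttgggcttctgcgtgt
Herpud1: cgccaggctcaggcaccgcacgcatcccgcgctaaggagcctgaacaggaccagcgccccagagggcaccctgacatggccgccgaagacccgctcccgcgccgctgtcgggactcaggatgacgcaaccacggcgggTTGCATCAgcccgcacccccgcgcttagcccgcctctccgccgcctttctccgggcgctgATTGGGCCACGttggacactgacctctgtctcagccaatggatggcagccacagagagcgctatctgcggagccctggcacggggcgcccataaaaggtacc
Hspe1: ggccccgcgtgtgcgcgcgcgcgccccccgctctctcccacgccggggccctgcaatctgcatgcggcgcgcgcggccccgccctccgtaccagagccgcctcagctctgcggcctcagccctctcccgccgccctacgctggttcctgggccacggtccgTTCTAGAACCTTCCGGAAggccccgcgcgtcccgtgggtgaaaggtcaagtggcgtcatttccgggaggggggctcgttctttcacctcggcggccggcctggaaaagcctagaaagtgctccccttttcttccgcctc

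The listed genes held 394513 to 489919 UMIs in the vehicle libraries and 248028 to 295614 in the rIL-13 libraries, so that low members are measured less well after rIL-13. Levels are given as CPM, a UMI count scaled to a common library size with TMM factors. A 3' UMI count does not grow with transcript length, although the capture of a given 3' end can differ between genes. Markers of the sorted type were present, with Trpm5 at 456 to 650 CPM and Avil at 890 to 1673 CPM, and all 12 tuft cell markers are listed. Of 8 thymocyte markers 0 are listed. Of 12 fibroblast markers 11 are listed, holding 0.149% to 0.316% of UMIs. Cd68 and Csf1r, the 2 listed of 6 myeloid markers, held 0.00161% to 0.0183%. Kdr and Tek, the 2 listed of 4 endothelial markers, held 0.00306% to 0.0133%. Between libraries Csf1r ran from 12.7 to 179 CPM and Kdr from 8.68 to 118 CPM. Cd79b was the 1 listed of 5 plasma and B cell markers. In bulk RNA, fewer cells of a type and less RNA per cell cannot be told apart.

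No chaperone or ER stress gene passed the test between rIL-13 and vehicle (0 of 65 higher and 0 of 65 lower; edgeR quasi-likelihood test, Benjamini-Hochberg adjusted p under 0.05 over 5135 genes). Over all genes tested the share past the threshold was 0.0389% higher and 0.0195% lower, 0.0584% in all. At an unadjusted p under 0.05 there was 1 member, Pdia5, or 1.54%, against 5.49% of all genes tested. It was lower with rIL-13, as were 2.41% of all genes tested, and 0 members were higher at that level, against 3.08%. DESeq2 and limma voom also called 0 members, each with 2 members, Pdia5 and Hspb1, at an unadjusted p under 0.05. Of the 65, 41 (63.1%) had a negative log2 fold change, against 50% of all genes tested, and the median was -0.12 against 0.00. The 3 libraries of each group did not overlap for 4 members, all lower with rIL-13 (6.15%, against 5.94% of all genes tested), and for 0 members in the other direction (5.76% of all genes tested). These 4, Pdia5, Cct3, Cct8 and Dnajc8, are thus a share near the background. The authors' deposited table holds 0 members past its criteria, with adjusted p = 1.0 for every member.

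**Figure D1:**
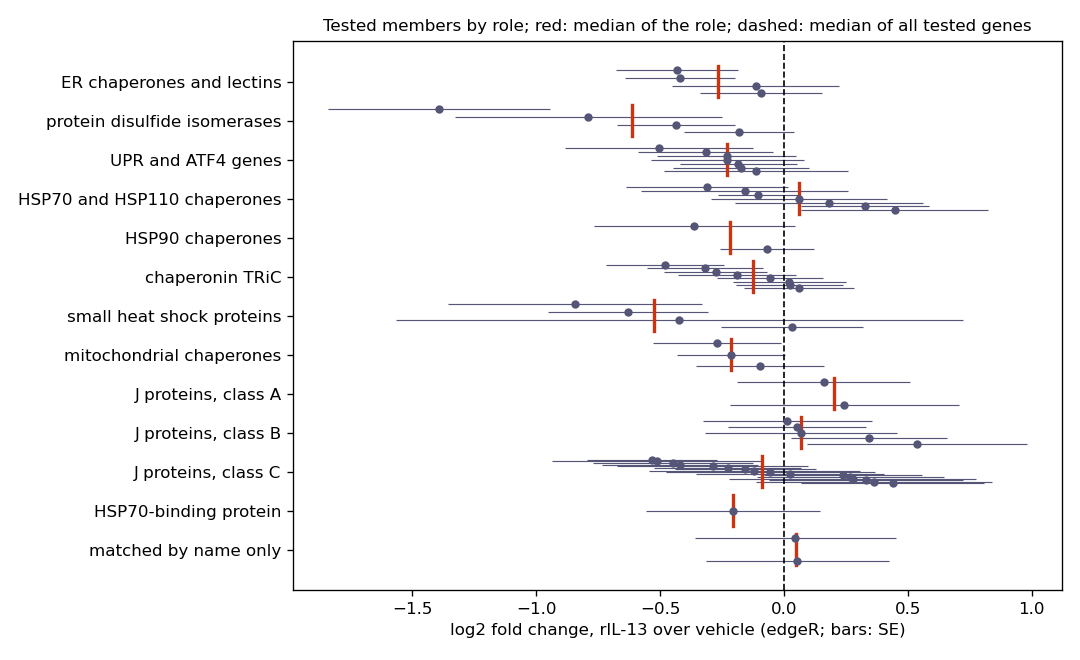
Log2 fold change with rIL-13 over vehicle (x axis; points with SE from edgeR, 3 libraries per group) for the 65 tested members, by role (y axis), with the median of each role in red and the median of all 5135 tested genes dashed. The tested members of the first 3 roles, 15 genes of the ER and the UPR, lie to the left of the dashed line. The J proteins of the ER lumen stand under the J protein roles and lie on both sides of it. None of the points passed the test.

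All 15 tested genes of the ER chaperones and lectins, the disulfide isomerases and the UPR and ATF4 group had a negative log2 fold change, from -1.39 to -0.09 with a median of -0.23, and 0 of 15 passed. The shared sign did not hold in every omission of a library: Calr and Asns turned positive with vehicle replicate 3 left out, at 0.15 and 0.0662. The same was so with rIL-13 replicate 3 left out, at 0.0968 and 0.0394. The 15 do not include the J proteins of the ER lumen, which were counted with the J proteins. Of those, Dnajb9, Dnajb11 and Dnajc3 were positive (0.01, 0.05 and 0.33) and Dnajc10 was negative (-0.45). Nor do they include the genes of these roles under the count filter. In the fit without the filter Chac1 and Trib3 were positive (0.55 and 0.56) and Sdf2l1 was negative (-0.49). Hspa5, the ER HSP70 protein BiP and a standard readout of ER stress, had 761, 534 and 781 CPM in the vehicle libraries, in order of replicate number, which is the order used throughout. The rIL-13 libraries had 661, 499 and 376 CPM. The groups overlapped, with rIL-13 replicate 1 above vehicle replicate 2 and rIL-13 replicate 3 the lowest. Its log2 fold change was -0.43 ± 0.24 (SE, n = 3 per group; edgeR adjusted p = 0.860). Hsp90b1, the ER HSP90 protein, had 991, 715 and 849 CPM with vehicle and 779, 596 and 532 CPM with rIL-13. Again the rIL-13 library that lay within the vehicle range was replicate 1, and the log2 fold change was -0.42 ± 0.22 (edgeR adjusted p = 0.860).

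Calreticulin and calnexin are paired lectins that hold glycoproteins during folding, 1 soluble and 1 in the membrane. Calr was the second most abundant member, at 2091, 2054 and 3221 CPM with vehicle and 3189, 2047 and 1677 CPM with rIL-13. Its 2 high libraries, vehicle replicate 3 and rIL-13 replicate 1, stood in different groups, and the log2 fold change was -0.09 ± 0.25 (edgeR adjusted p = 0.980). Canx was far lower, at 47.8 to 69.6 CPM, and had 56.4 and 47.8 CPM in those libraries. The ratio of Calr to Canx was lowest in rIL-13 replicate 3 (24.8) and highest in rIL-13 replicate 1 (66.8), with 57.1 in vehicle replicate 3. Canx had 13 to 30 UMIs per library, with 13 in rIL-13 replicate 1, so the counting error of these ratios is large.

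The disulfide isomerases held the largest single difference among the tested members. Pdia5 (mm10 chr16:35397312-35490873, minus strand, protein-coding) had 67.4, 65.0 and 78.1 CPM with vehicle and 47.8, 14.4 and 16.9 CPM with rIL-13. In UMIs these are 24, 28 and 36 against 13, 4 and 4. All rIL-13 libraries lay below all vehicle libraries, each by more than the whole range of the vehicle libraries, and replicates 2 and 3 were the farthest below. The means were 70.2 ± 7.02 and 26.3 ± 18.6 CPM (SD, n = 3 each), and the log2 fold change of -1.39 ± 0.45 did not pass (edgeR adjusted p = 0.585). Without rIL-13 replicate 1 it was -2.17 ± 0.51, still short of the threshold (edgeR adjusted p = 0.0613).

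Pdia3, the isomerase that works with calreticulin and calnexin, had 696, 420 and 545 CPM with vehicle and 492, 373 and 359 CPM with rIL-13, or -0.44 ± 0.24 on the log2 scale (edgeR adjusted p = 0.860). Its groups overlapped through vehicle replicate 2. Pdia6, which acts with BiP, had 800, 696 and 1020 CPM against 871, 729 and 617 CPM, and Pdia4 had 7, 24 and 19 UMIs against 9, 7 and 2. Both sets overlap, and neither passed (log2 fold changes of -0.18 ± 0.22 and -0.79 ± 0.54).

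**Figure D2:**
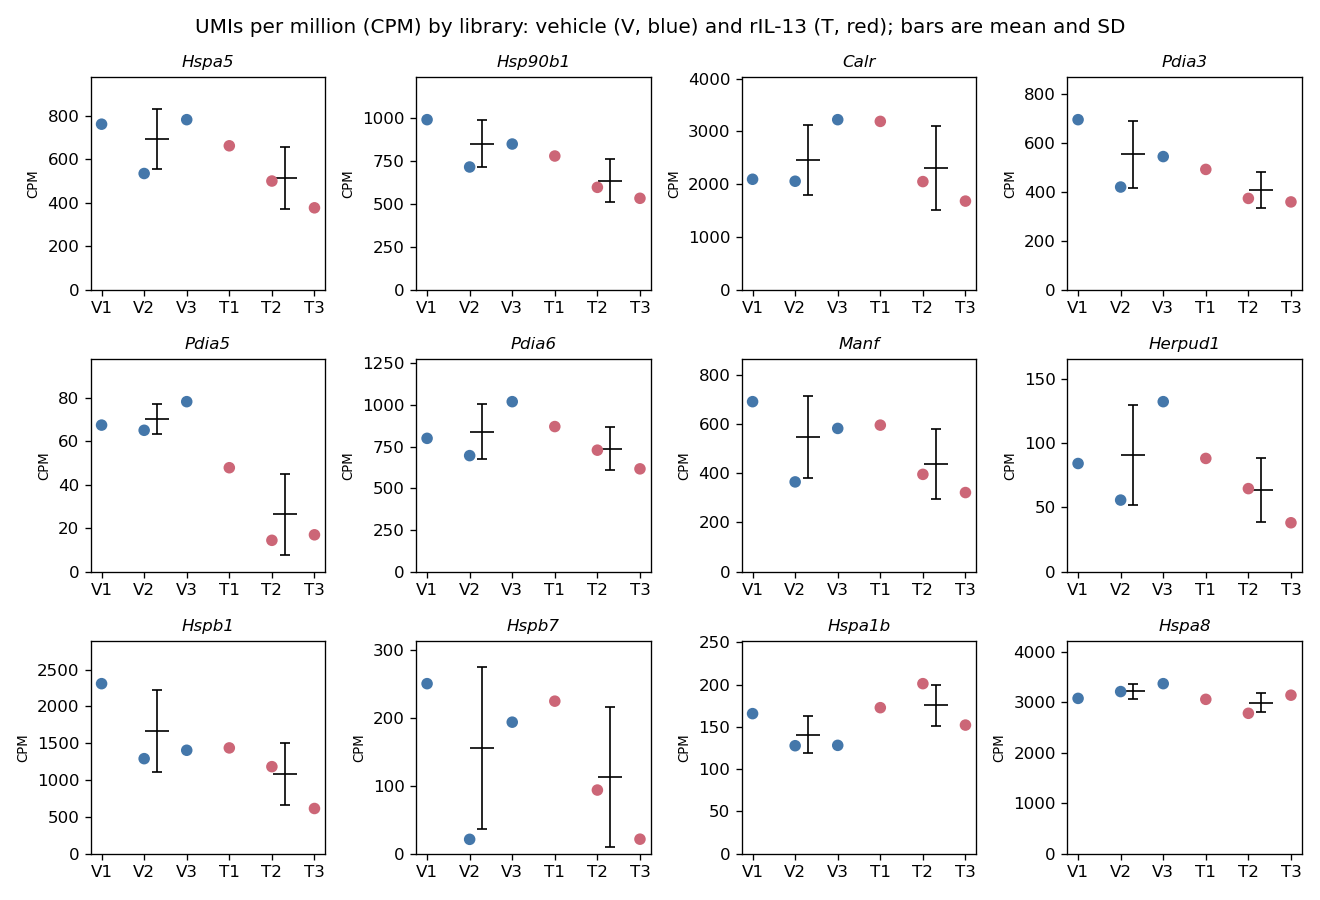
CPM (y axis, from 0) of 12 members in each library (x axis; V1 to V3 vehicle, blue, and T1 to T3 rIL-13, red), with the mean and SD of each group as bars. For most of the ER genes T3 is the lowest library and T1 lies among the vehicle libraries, while Hspa8 is level across all 6 libraries.

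The UPR and ATF4 genes sat at modest levels. Atf4, the transcription factor of the integrated stress response, had 497, 378 and 423 CPM with vehicle and 485, 359 and 296 CPM with rIL-13 (log2 fold change -0.18 ± 0.24). Xbp1, the factor activated by IRE1, had 168, 144 and 141 CPM against 110, 176 and 114 CPM, with no separation of the groups (-0.17 ± 0.27). Total Xbp1 counts at the 3' end do not tell its spliced form from its unspliced form. Ddit3, which encodes the proapoptotic factor CHOP, had 126, 99.8 and 76.0 CPM against 69.8, 89.8 and 97.1 CPM (-0.23 ± 0.31). The edgeR adjusted p was 0.941 for Atf4 and Ddit3 and 0.963 for Xbp1.

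Among the genes downstream, Manf, a secreted ER stress factor, was the most abundant, at 690, 364 and 582 CPM with vehicle and 595, 395 and 321 CPM with rIL-13 (log2 fold change -0.32 ± 0.27, edgeR adjusted p = 0.926). Creld2, an ER protein with a match to the ER stress response element, had 219, 144 and 221 CPM against 191, 194 and 110 CPM. Herpud1, a component of ER-associated degradation, had 84.2, 55.7 and 132 CPM against 88.2, 64.6 and 38.0 CPM (-0.50 ± 0.38). The amino acid enzyme gene Asns, an ATF4 target, had 67.4, 39.4 and 73.8 CPM against 58.8, 64.6 and 42.2 CPM. In each of these genes the groups overlapped, and vehicle replicate 2 was the lowest vehicle library. The remaining 3 genes of the group fell under the count filter. Trib3, a pseudokinase gene and ATF4 target, had vehicle UMI counts of 7, 0 and 1 and rIL-13 counts of 6, 0 and 2. Chac1, a glutathione-degrading enzyme gene and ATF4 target, had 10, 3 and 10 against 16, 5 and 1. Sdf2l1, an ER chaperone cofactor gene, had 9, 7 and 20 against 7, 4 and 5. At these counts a difference was not detectable.

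The libraries were not equal within a group. Over the 15 tested ER and UPR genes, rIL-13 replicate 3 held the lowest CPM in 10 and the highest in 0, and vehicle replicates 3 and 1 held the highest in 7 and 5. How often each library was lowest or highest over all genes tested was not counted. The fewest UMIs (248028) were also in rIL-13 replicate 3. These counts are therefore not shown to be particular to the ER and UPR genes. The 18 listed genes of these roles together took 0.670%, 0.551% and 0.781% of the UMIs of the vehicle libraries. In the rIL-13 libraries they took 0.720%, 0.555% and 0.449%. The group means were 0.667 ± 0.115% and 0.575 ± 0.137% (SD, n = 3 each), so the difference was smaller than the spread within either group. The 11 listed fibroblast markers took 0.316%, 0.225% and 0.289% of vehicle UMIs against 0.300%, 0.201% and 0.149% of rIL-13 UMIs. The 12 tuft cell markers held 0.288%, 0.338% and 0.306% against 0.345%, 0.536% and 0.528%. The same 3 libraries, vehicle replicates 1 and 3 and rIL-13 replicate 1, had the highest summed shares of fibroblast markers and of ER and UPR genes. In rIL-13 replicate 3 both sums were lowest. A sum weighs abundant markers most, and the single fibroblast markers did not move together. For the 9 tested, the median of log2 CPM minus the vehicle mean was 0.26, -0.17 and -0.19 with vehicle. With rIL-13 it was -0.17, 0.05 and -0.87, so by this measure vehicle replicate 3 and rIL-13 replicate 1 were not high. The part of fibroblasts in the ER result was not tested.

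**Figure D3:**
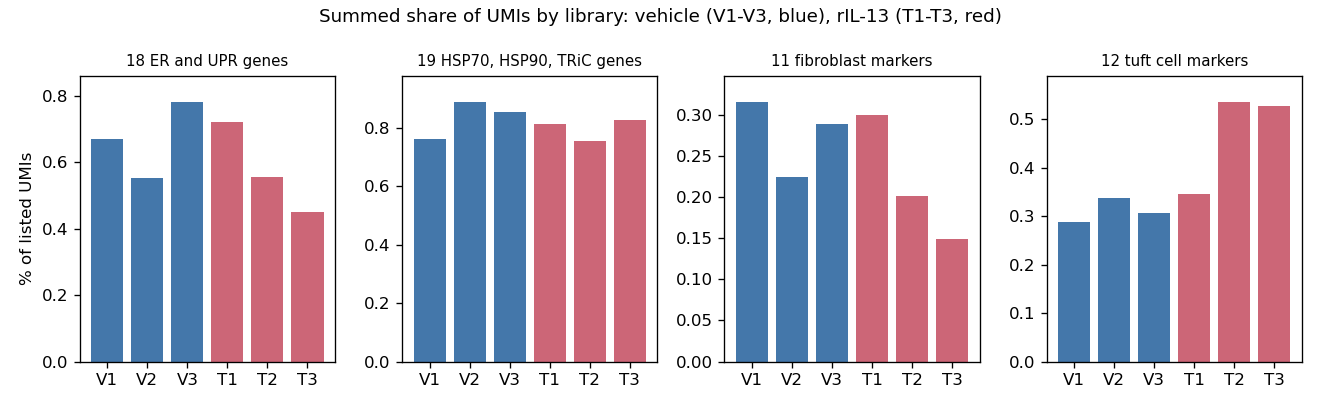
Share of listed UMIs in percent (y axis, from 0) in each library (x axis; V1 to V3 vehicle, blue, T1 to T3 rIL-13, red) for 4 gene groups. The ER and UPR genes and the fibroblast markers are lowest in T3 and low in V2 and T2. The HSP70, HSP110, HSP90 and TRiC genes lie between 0.755% and 0.889% throughout, and the tuft cell markers are highest in T2 and T3.

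When rIL-13 replicate 1 was left out, the fit gave 0 members past the threshold and 10 of 65 at an unadjusted p under 0.05 and lower (15.4%, against 5.31% of all genes tested). At that level 1 member, Dnajb12, was higher (log2 fold change 0.89 ± 0.42), against 5.46% of all genes tested. In that fit 0.475% of all genes tested passed, and 51.1% had a negative log2 fold change, as did 15 of 15 ER and UPR genes. Of the 10 lower members, 5 were ER or UPR genes, namely Hspa5 (log2 fold change -0.68 ± 0.24), Hsp90b1 (-0.61 ± 0.22), Pdia3 (-0.61 ± 0.24), Manf (-0.62 ± 0.26) and Pdia5. Their edgeR adjusted p ran from 0.0613 for Pdia5 to 0.407 for Manf. With vehicle replicate 3 left out as well, a choice made after the data were seen, 8 of 64 members were at an unadjusted p under 0.05 and lower (12.5%, against 5.06%), and 13 of 14 tested ER and UPR genes were negative, against 49.9% of all genes tested. Again 0 members passed, against 0.579% of all genes tested. Without vehicle replicate 2, 6 of 64 members were lower at an unadjusted p under 0.05 (9.38%, against 2.35% of all genes tested), namely Hspa5, Hsp90b1, Pdia3, Pdia5, Cct8 and Hspb1, and 0 passed. In the fit of all libraries 1 of 65 was at that level, as was 1 when any of the other 4 libraries was left out, so the count moved with rIL-13 replicate 1 and with vehicle replicate 2. ER and UPR genes were negative in 15 of 15 tested without vehicle replicate 1, 14 of 14 without vehicle replicate 2 and 12 of 14 without vehicle replicate 3. They were negative in 15 of 16 without rIL-13 replicate 2 and 13 of 16 without rIL-13 replicate 3. In these fits the share of negative values over all genes tested was not counted, and the median over all genes tested ran from -0.00507 to 0.00879.

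Hspa8, the constitutive HSP70 protein and the most abundant member, had 3079, 3214 and 3371 CPM with vehicle and 3060, 2783 and 3143 CPM with rIL-13, or -0.11 ± 0.16 on the log2 scale (edgeR adjusted p = 0.958). Its highest library was 1.21-fold above its lowest. The stress-inducible Hspa1b had 166, 128 and 128 CPM with vehicle and 173, 201 and 152 CPM with rIL-13, and Hspa1a had 64.6, 65.0 and 36.9 CPM against 40.4, 71.8 and 76.0 CPM. Neither pair of groups separated, with log2 fold changes of 0.33 ± 0.26 and 0.18 ± 0.38. Hspa1a and Hspa1b, neighbours on chromosome 17, are nearly identical in sequence, so how reads were split between them is uncertain. Set against both together, Hspa8 was 10.2 to 20.4 times as abundant.

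Hsph1, the HSP110 exchange factor of HSP70, had 53.3, 60.3 and 56.4 CPM with vehicle and 55.1, 79.0 and 42.2 CPM with rIL-13. Hspa4, another exchange factor of that family, had 36.5, 67.3 and 67.3 CPM against 44.1, 108 and 84.5 CPM (log2 fold change 0.45 ± 0.38, edgeR adjusted p = 0.926). Of the 7 tested genes of the HSP70 and HSP110 group, 4 were positive and 3 negative, with a median of 0.06. Of the HSP90 pair, the constitutive Hsp90ab1 had 1482, 1991 and 1817 CPM with vehicle and 1932, 1465 and 1643 CPM with rIL-13 (-0.07 ± 0.19). The inducible Hsp90aa1 was low and uneven, at 138, 81.2 and 56.4 CPM against 33.1, 82.6 and 97.1 CPM (-0.36 ± 0.41). Their ratio, Hsp90ab1 over Hsp90aa1, was 10.8 at its lowest, in vehicle replicate 1, and 58.4 at its highest, in rIL-13 replicate 1. The highest ratio rests on 9 UMIs of Hsp90aa1, so its counting error is large.

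TRiC, an 8-subunit ring that folds actin and tubulin, was measured in all its subunit types, as Tcp1 and Cct2 to Cct8. Of the 8 genes 5 were negative and 3 positive, from -0.48 to 0.06 with a median of -0.12. Cct8 had 354, 246 and 313 CPM with vehicle and 235, 190 and 228 CPM with rIL-13 (log2 fold change -0.48 ± 0.24, edgeR adjusted p = 0.860). Cct3 had 463, 515 and 478 CPM against 415, 395 and 393 CPM (-0.27 ± 0.21, edgeR adjusted p = 0.911), and among the members its libraries varied least within a group. In both genes the rIL-13 libraries lay below all vehicle libraries. Cct7 was the most abundant subunit, at 578 to 761 CPM, and the CPM of Tcp1, Cct2 and Cct5 differed by less than the spread of the libraries. The summed TRiC share of UMIs was 0.320 ± 0.0270% for vehicle and 0.301 ± 0.0217% for rIL-13 (SD, n = 3 each).

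Of the mitochondrial folding machinery, Hspd1 had 404, 325 and 371 CPM with vehicle and 342, 298 and 308 CPM with rIL-13, and Hspe1 had 968, 513 and 519 CPM against 514, 686 and 667 CPM. The genes share a promoter region, yet vehicle replicate 1 stood high for Hspe1 and in no such degree for Hspd1. The ratio of Hspe1 to Hspd1 was 1.40 to 2.40 over the libraries. Hspa9, the mitochondrial HSP70 protein, had 182, 204 and 206 CPM against 209, 158 and 122 CPM. The 3 log2 fold changes were -0.21 ± 0.22, -0.10 ± 0.26 and -0.27 ± 0.26, and none passed.

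Several small heat shock proteins varied widely between libraries of the same group. Hspb1, an abundant actin-protecting chaperone (HSP27 in human), had 2310, 1290 and 1404 CPM with vehicle and 1436, 1181 and 612 CPM with rIL-13. Vehicle replicate 1 stood above all others and rIL-13 replicate 3 below, the groups overlapped, and the log2 fold change was -0.63 ± 0.32 (edgeR adjusted p = 0.860). Hspb7, a chaperone of heart and skeletal muscle, had 250, 20.9 and 193 CPM with vehicle and 224, 93.4 and 21.1 CPM with rIL-13. Its highest library was 12.0-fold above its lowest, and both low libraries, vehicle replicate 2 and rIL-13 replicate 3, stood in different groups. In the spread of log2 CPM within groups, 1.67 on the log2 scale, Hspb7 ranked 12 among the 5135 tested genes. The summed share of fibroblast markers was also lower in those 2 libraries than in vehicle replicates 1 and 3 and rIL-13 replicate 1. However, rIL-13 replicate 2, with 0.201% of fibroblast marker UMIs against 0.225% in vehicle replicate 2, had the higher Hspb7 of that pair. The part of fibroblasts in the spread of Hspb7 was not tested.

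Hspb2, another muscle member, had vehicle UMI counts of 23, 16 and 39 and rIL-13 counts of 2, 13 and 12, the low count being in rIL-13 replicate 1 (log2 fold change -0.84 ± 0.51, edgeR adjusted p = 0.866). Hspb8, which works in autophagic clearance of misfolded protein, had 97.1 to 162 CPM with a log2 fold change of 0.03 ± 0.29. Hspb6 and Hspb3 were under the count filter.

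**Figure D4:**
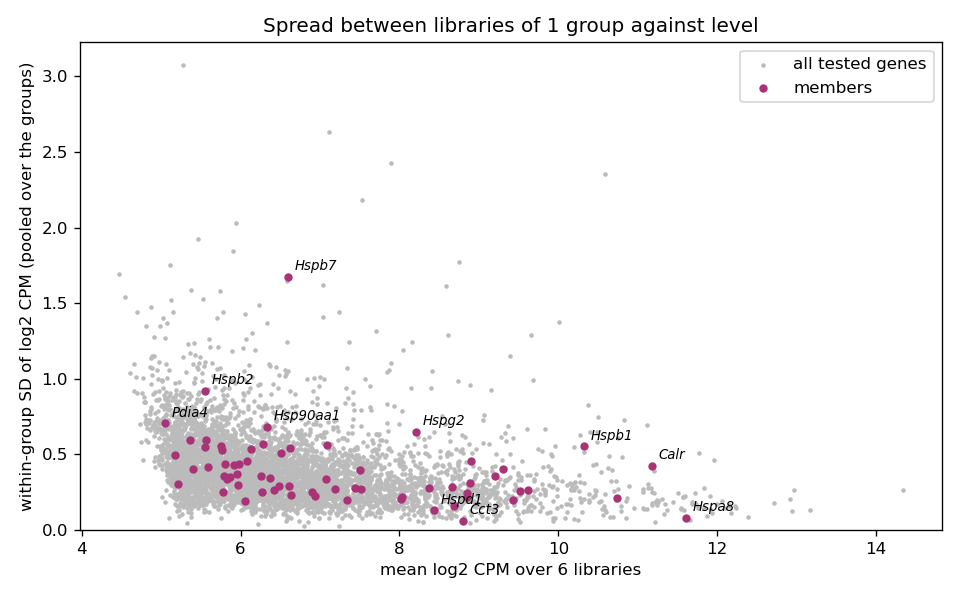
Within-group SD of log2 CPM, pooled over the groups (y axis), against mean log2 CPM over 6 libraries (x axis) for all 5135 tested genes (grey) and the 65 tested members (purple). Hspb7 stands far above the other members and Hspa8 and Cct3 lie near the lower edge; the median SD was 0.34 for members and 0.37 for all tested genes.

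J proteins, the cochaperones that stimulate HSP70 proteins, were numerous and low. Of 32 listed, 23 were tested, 14 with a positive and 9 with a negative log2 fold change and a median of 0.05. Dnajb1, the heat-inducible partner of HSP70, had 104, 60.3 and 62.9 CPM with vehicle and 91.8, 101 and 92.9 CPM with rIL-13 (0.34 ± 0.31, edgeR adjusted p = 0.926). Of the J proteins of the ER lumen, Dnajb9, Dnajb11 and Dnajc3 were at 0.01 ± 0.34, 0.05 ± 0.28 and 0.33 ± 0.39, and Dnajc10, which is also a reductase, was at -0.45 ± 0.32. Dnajc10 had 163, 169 and 150 CPM with vehicle and 169, 126 and 54.9 CPM with rIL-13, and replicate 3 of rIL-13 alone was far below the rest. Dnajc8, a splicing-associated J protein, had 211, 220 and 182 CPM against 180, 136 and 106 CPM (-0.53 ± 0.26, edgeR adjusted p = 0.860), and its groups were separated by the small gap between vehicle replicate 3 and rIL-13 replicate 1. Dnajb12, an ER membrane J protein, was the highest of the tested members, at 0.54 ± 0.45, with 39.3, 30.2 and 39.1 CPM against 22.0, 61.0 and 76.0 CPM. Hspbp1, an exchange factor of HSP70, was at -0.21 ± 0.35.

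The 16 members under the count filter had 9 to 54 UMIs over all libraries, and 7 members were at 0 in at least 1 library. In the edgeR fit without the filter none of the 16 passed, with a smallest adjusted p of 0.958. Perlecan, the Hspg2 gene caught by its symbol, had 337, 234 and 341 CPM with vehicle and 507, 287 and 148 CPM with rIL-13, with its lowest library again rIL-13 replicate 3. Without it and Hspb11, 41 of 63 tested members were negative, with a median of -0.16. Taken by the element in their promoters, the 7 genes with an ER stress response element comprised 6 with a negative log2 fold change and Dnajc3 with a positive one. All 6 are among the ER and UPR genes counted above, and 50% of all genes tested were negative. For the other elements Herpud1, Asns, Hspa14, Hspd1 and Hspe1 were negative, and Dnajb11, Hsph1 and Dnajc25 were positive. In the fit without the filter Chac1, Trib3 and Dnajb6, which carry such elements, were positive.

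Related genes outside the set were read in the same fit. Of 93 listed genes of 6 further classes 80 were tested, and 0 rose and 0 fell past the threshold, with 48 negative and 32 positive values and a median of -0.06. ER folding enzymes and cofactors had 12 negative of 16 (median -0.12). The translocon and signal peptidase, counted with the vesicle coat genes Sec13 and Sec31a (-0.43 and -0.22), had 9 of 13 (-0.18). A class of UPR regulators and ER-associated degradation had 8 of 11 (-0.20). The sensor genes Atf6 and Eif2ak3, the latter encoding PERK, fell under the count filter and are not among the 11. In the fit without the filter they were at 0.90 and -0.12. HSP70 and HSP90 cochaperones had 8 negative of 18 (0.01). Further genes of the ATF4 pathway and the integrated stress response had 8 of 15 (-0.02), and prefoldin with mitochondrial folding factors 3 of 7 (0.01). Bag1, an exchange factor of HSP70, had the smallest p of these, with 564, 580 and 540 CPM with vehicle and 400, 381 and 384 CPM with rIL-13 (log2 fold change -0.53 ± 0.21, edgeR adjusted p = 0.804). Its groups did not overlap, and the spread within each was small. Bag6, a cytosolic factor for tail-anchored and misfolded proteins, was separated the other way, at 196, 209 and 219 CPM against 338, 262 and 275 CPM (0.48 ± 0.23, edgeR adjusted p = 0.860). Over these 80 genes 3 were separated upward and 7 downward, against 5.76% and 5.94% of all genes tested.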

How the data were processed

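The members, roles, gene lists and tests were chosen with earlier results of these data known. Bulk MARS-seq libraries of 3 rIL-13 and 3 vehicle samples were grouped by sample title. The submitters' processing notes list the build mm10 and, without roles or order, DESeq2, HTSeq, STAR 2.5.2b, cutadapt and bcl2fastq. Per the file headers, the deposited table holds raw UMI counts per gene, regularized log2 values, a normalized signal (the counts over size factors) and a comparison by the authors with log2 fold changes and p-values. The lowest maximum over libraries of any listed gene was 6 UMIs, and library totals are sums over the listed genes. The tests used the deposited counts. The normalized signal and regularized log2 values were not used, and the authors' log2 fold changes had their sign turned.

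The test was the quasi-likelihood F test of edgeR 4.0.16 under R 4.3.3, two-sided, with TMM factors, group as the single term and the default filter on low counts, which kept 5135 of 9088 genes with 93.8% of UMIs (biological coefficient of variation 24.9%). SE values are implied by the F statistic. DESeq2 1.42.0, limma 3.58.1 (voom), other scaling and filters, a replicate block and omission of libraries were alternatives. These fits were tested on simulated data. Named genes were the passing members (none), the 2 smallest p in each role, the 10 highest in CPM, the 6 with the largest within-group SD and 31 fixed genes, 46 in all. Cct2, Cct3, Cct5, Tcp1, Hspb3, Hspb6, Hspb8, Dnajb6, Hspa14 and Dnajc25 were added after their values were seen. Gene coordinates come from GENCODE M21 on mm10. Figures were drawn with matplotlib 3.10.9.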

Additional observations from a re-analysis of the deposited data

How the results depend on the processing

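In every alternative run, 0 members passed in either direction. Over all genes, 2 passed higher and 1 lower. DESeq2 gave 4 and 2, limma voom 0 and 0, no filter 5 and 2, and the replicate block 8 and 5. Leaving out vehicle replicate 3 and rIL-13 replicate 1 together, chosen after seeing the data, gave 21 and 10. Leaving out each library in turn gave 1 to 20 higher and 0 to 15 lower, and a median of the members from -0.21 to -0.0694. The cause was not tested. Deviations from the group means gave correlations of -0.0676, 0.0733 and -0.223 between same-numbered libraries. These values showed no pairing by number, but with 3 libraries per group they cannot exclude it, and the labels do not state it. The replicate block is therefore given as an alternative alone.

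How many of all genes tested turned sign when some 1 library was left out was not counted. Of the 65 tested members, none of which passed, 28 turned sign in this way. Among those with values in the text, log2 fold changes then ran from -0.36 to 0.0662 for Asns, -0.42 to 0.15 for Calr, -0.0825 to 0.14 for Cct2, -0.10 to 0.17 for Cct5, -0.17 to 0.0420 for Cct7, -0.0447 to 0.14 for Tcp1, -0.0427 to 0.45 for Dnaja2, -0.0605 to 0.24 for Dnajb11, -0.20 to 0.26 for Dnajb9, -0.64 to 0.0278 for Hsp90aa1, -0.20 to 0.0180 for Hsp90ab1, -0.0562 to 0.40 for Hspa1a, -0.21 to 0.32 for Hspb11, -1.39 to 0.0820 for Hspb7, -0.15 to 0.21 for Hspb8, -0.79 to 0.0396 for Hspbp1, -0.27 to 0.26 for Hspe1, -0.49 to 0.39 for Hspg2 and -0.22 to 0.24 for Hsph1. Hspg2 was at -0.0853 with limma voom and -0.0660 with the replicate block. With both libraries left out, Asns was at 0.0254, Hspb11 at -0.0045 and Hspg2 at -0.38. The ratios of UMI shares by role moved by less than the spread of the libraries under each alternative run. Counting error is large for members with few UMIs per library.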
